A study of Mus musculus with 6 samples.

Results

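The genes for the proteins of the cytosolic ribosome were compared between 3 control gliomas and 3 relapsed gliomas of the mouse. A gene was taken when its symbol in the platform annotation began with Rpl or Rps and a number, with pseudogenes (-ps) and kinases left out, and when at least 1 probe set carried that symbol alone. These conditions gave 59 of the 19938 genes tested, read by 209 probe sets, and each gene was represented by its brightest probe set on average. A further 237 probe sets carried several symbols of which at least 1 was such a gene. They name 38 ribosomal protein genes, 20 of them not among the 59, and they are given apart because their signal cannot be assigned to 1 gene. Of the 59, 50 encode canonical ribosomal proteins. The other 9 are paralogs or copies (Rpl39l, Rps27l, Rpl7l1, Rpl10l, Rpl3l, Rps4l, Rpl32l and Rps23rg1) and Rps19bp1, which encodes a protein that binds Rps19 and is no part of the ribosome.

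All 6 tumours grew from cells of a glioma driven by mutant EGFR, the epidermal growth factor receptor, placed under the skin of the flanks of Nu/Nu mice. These hosts lack a working thymus and most T cells, and they keep macrophages, fibroblasts and vessels. Control gliomas 1, 2 and 4 were set against relapsed gliomas 1, 2 and 3, which had regrown after the mutant receptor was extinguished. Drinking water held doxycycline at 2 g/L or none, and the labels do not say which group drank it. Tumours were taken at 2 cm3, total RNA of the whole tumour was labelled, and each tumour had 1 Affymetrix array. No age, number of lines or number of animals is given, so the p-values measure a difference only against how much these tumours vary, which may be less than animals vary. In such bulk RNA, a change in the share of a cell type and a change in RNA per cell cannot be told apart.

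A ribosome joins a small subunit, which reads the messenger RNA, to a large subunit, which forms the peptide bond. Each subunit is a core of ribosomal RNA with its own set of proteins, most of them made in equal numbers, and RNA polymerase I supplies most of the ribosomal RNA. Messenger RNAs for ribosomal proteins begin with a run of C and T bases, the 5′ terminal oligopyrimidine tract, through which the mTOR kinase controls their translation.

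The starts of the genes on which the results turn are shown first, with a nearby run of C and T bases marked. The marked run need not be the tract that begins the messenger RNA. Of the 59 genes, 48 matched the RefSeq promoter table (GRCm38.p6). A run of at least 8 C or T bases lay within 30 bases before to 50 bases after an annotated start in 36 of the 48 (75%), against 32.32% of the 27025 genes of the table. Each line gives 30 bases of the coding strand around the longest run of any length in that window, 5′ to 3′, with the run in capitals. Counted from the annotated start, the first base of the marked runs lay from -28 in Rps3 to 40 in Rpl12. The first 8 genes were called higher in relapsed tumours, Rpl12 was the most negative member, and Rps6 had nearly equal means.
Rps3a1, chr3:86142623-86142652, minus strand: acgtagacggcgCTCCCCgcccggctcgcg
Rps12, chr10:23787182-23787211, minus strand: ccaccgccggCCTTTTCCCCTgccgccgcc
Rps27l, chr9:66946053-66946082, plus strand: ccccgcctccaCTCCTCTCCactcctcccc
Rpl5, chr5:107900497-107900526, plus strand: gcctacagccaCTCTTTCTCacgtcgcttg
Rps7, chr12:28635911-28635940, minus strand: ctgtccccaCCTCTTTTCTTCCgccacccg
Rpl23, chr11:97782404-97782433, minus strand: gagtgggcggggCCTCCCgttcatatccca
Rps3, chr7:99483720-99483749, minus strand: tgcaaaacttcaTTTCCCatgaacacttgc
Rps18, chr17:33955648-33955677, minus strand: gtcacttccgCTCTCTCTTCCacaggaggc
Rpl12, chr2:32961732-32961761, plus strand: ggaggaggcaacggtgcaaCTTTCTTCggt
Rps6, chr4:86857349-86857378, minus strand: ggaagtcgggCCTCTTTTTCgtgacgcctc

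Called genes had both long and short runs. Rps12, Rps7 and Rps18 have runs of 11, 13 and 11 bases, whereas Rps3a1, Rpl23 and Rps3, called as well, have runs of 6 bases in this window. Rps6, with nearly equal means, has a run of 10 bases. The median log2 difference was 0.19 over the 36 genes with a run of 8 or more and 0.29 over the other 12. The window holds both transcribed and upstream bases, and annotated starts can lie off the start used in these tumours.

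Across the set, ribosomal protein genes were mostly a little higher in relapsed than in control gliomas. Of the 59, 52 (88.1%) had a positive difference, against 44.9% of all genes tested, and the median log2 difference was 0.23, against -0.02 over all genes. By limma with Benjamini-Hochberg adjustment over all 19938 genes, 9 rose and 0 fell at an adjusted p under 0.05, where 9.16% of all genes were called, 3.69% higher and 5.47% lower. At an unadjusted p under 0.05, 23 were higher and 1 was lower, where 2241 and 3066 of all 19938 genes were. Every relapsed array lay above every control array for 27 of the 59, against 13.0% of all genes, and below for 1, against 17.8%. The 9 rises ranged from 1.19-fold to 2.11-fold, and Rps3a1 alone reached 2-fold. The number of calls fell with any 1 tumour left out. Leaving out control 1 or control 4 left 1 call, leaving out control 2 left 5, and leaving out relapsed 1 left 4. Leaving out relapsed 2 or relapsed 3 left 0 calls in limma, with 15 members higher at an unadjusted p under 0.05 in either case. Calls over all genes fell as well, from 1826 to between 264 and 975. A smaller fit has less precision, so these counts do not tell the weight of 1 tumour from that loss. With any 1 array left out, the difference ran from 0.94 to 1.18 for Rps3a1 and from 0.68 to 0.78 for Rps12.

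**Figure D1:**
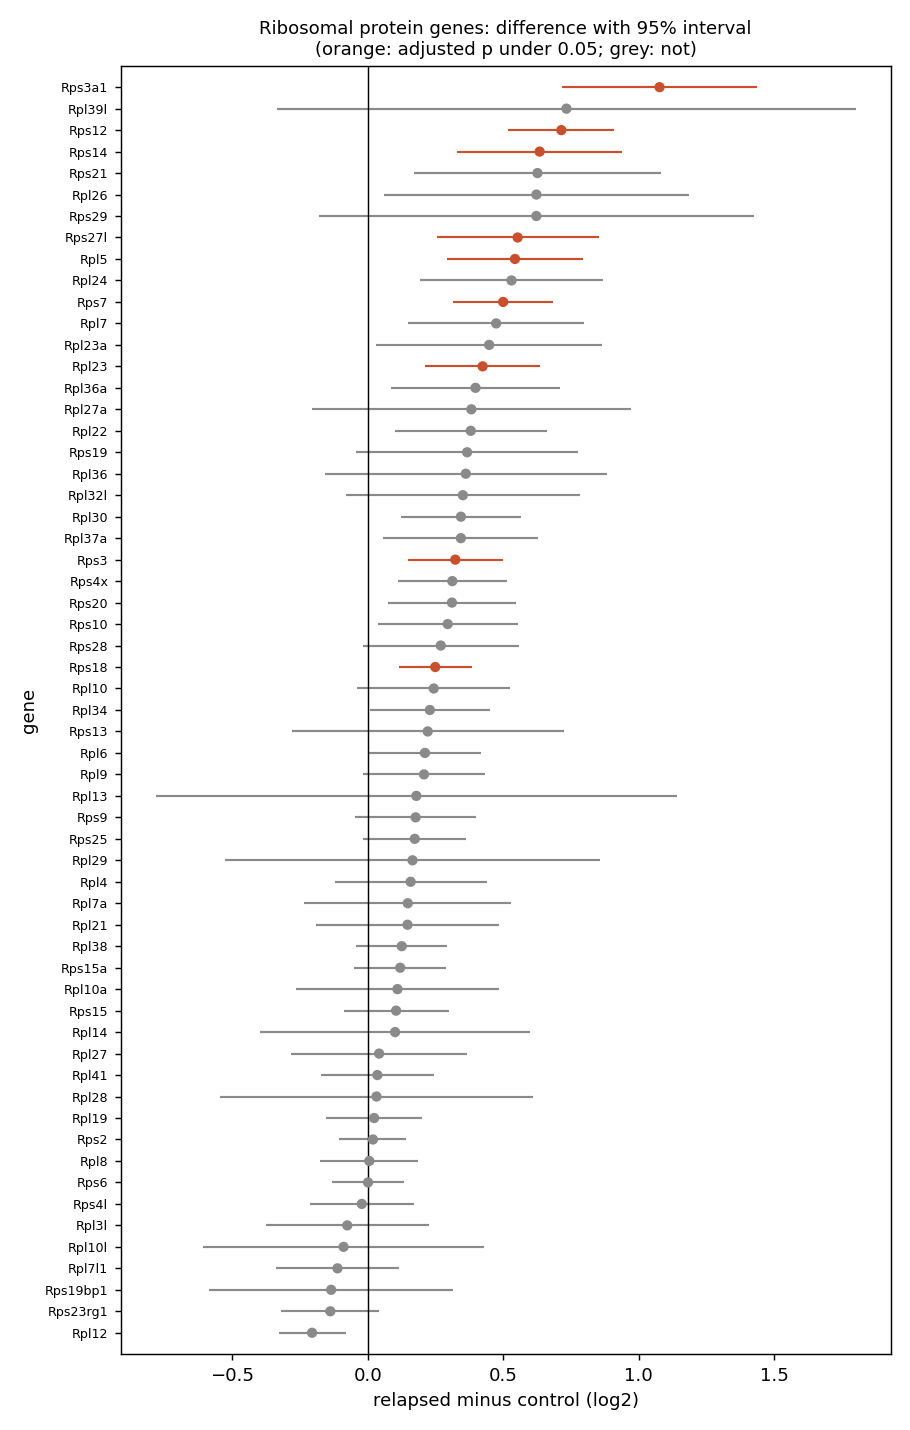
Log2 difference, relapsed minus control, of each of the 59 genes with its 95% interval from limma (3 arrays per group), ordered by size; orange marks an adjusted p under 0.05. The points run from -0.21 for Rpl12 to 1.08 for Rps3a1, 52 lie right of 0, and most of the intervals of uncalled genes reach close to or across 0.

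The small subunit held most of the calls. Of its 20 canonical genes, all 20 had a positive difference, 6 were called and the median was 0.30. Of the 30 canonical large-subunit genes, 29 were positive, 2 were called and the median was 0.21. The difference between the subunits was not tested. The remaining call was the paralog Rps27l.

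Rps3a1, which encodes a protein of the small-subunit platform, had log2 values of 8.71, 8.84 and 8.37 in control 1, 2 and 4 and of 9.59, 9.71 and 9.86 in relapsed 1, 2 and 3. The groups lay well apart, with control 4 lowest. Its rise was 1.08 ± 0.14 (SE, 3 arrays per group), or 2.11-fold, with a limma adjusted p of 0.0184. Rps12, a protein of the beak of the small-subunit head, read 11.38, 11.18 and 11.17 in the controls and 11.92, 12.02 and 11.94 in the relapsed tumours. No relapsed value came near a control value, and the rise was 0.71 ± 0.08, or 1.64-fold (limma adjusted p = 0.0137). Rps12 has the most probe sets of its own symbol among the called genes, 14, and all 14 were called higher in the limma fit over all probe sets. Several of them gave the same value as another in every array, so the 14 are not independent measurements. Rps14, a platform protein whose loss underlies the anaemia of the human 5q- syndrome, read 11.54, 11.67 and 11.37 in the controls and 12.18, 12.33 and 11.98 in the relapsed tumours. It rose by 0.63 ± 0.12 (limma adjusted p = 0.0388), and control 4 was again the lowest array.

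Rps7, a protein of the small-subunit body that can bind Mdm2, the ubiquitin ligase of p53, read 12.28, 12.30 and 12.09 in the controls and 12.69, 12.72 and 12.74 in the relapsed tumours. The relapsed values lay within 0.1 of each other, and the rise was 0.50 ± 0.07 (limma adjusted p = 0.0212). All 3 of its probe sets were called in the fit over all probe sets. Rps3, at the entry of the messenger RNA channel, read 11.82, 11.86 and 11.68 against 12.07, 12.16 and 12.10, a rise of 0.32 ± 0.07 (limma adjusted p = 0.0496). Rps18, a head protein that takes part in a bridge to the large subunit, read 12.54, 12.51 and 12.47 against 12.77, 12.71 and 12.79, a rise of 0.25 ± 0.05 (limma adjusted p = 0.0491). Both changes were small, about 1.25-fold and 1.19-fold, and the arrays of each group lay close together. Neither held up: the Rps18 call was lost in all 13 alternatives tried (lowest limma adjusted p = 0.0641) and the Rps3 call in 12 of 13.

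On the large subunit, Rpl5, which binds 5S ribosomal RNA together with Rpl11 and can block Mdm2, read 11.87, 11.69 and 11.69 in the controls and 12.12, 12.40 and 12.35 in the relapsed tumours. It rose by 0.54 ± 0.10, or 1.46-fold (limma adjusted p = 0.0350), with relapsed 1 the nearest to the controls. Rpl23, on the face that meets the small subunit, read 12.15, 12.09 and 11.97 against 12.36, 12.58 and 12.54. Here too relapsed 1 was the lowest relapsed array, and the rise was 0.42 ± 0.09 (limma adjusted p = 0.0426). Rps27l, a paralog of Rps27 known as a target of p53, read 10.63, 10.89 and 10.48 against 11.22, 11.13 and 11.31. Control 2 came close to relapsed 2 without overlap, and the rise was 0.55 ± 0.12, or 1.47-fold (limma adjusted p = 0.0492). Of the 13 alternatives, the calls of Rps3a1 and Rps12 were lost in 4, those of Rpl5 and Rps7 in 6, those of Rps14 and Rps27l in 8, and that of Rpl23 in 10. The 13 include a fit with the replicate number as a block, in which no gene of the table was called, and fits with an array left out. In the block fit only tumours 1 and 2 of each group bear on the difference, because the other numbers occur in 1 group alone.

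**Figure D2:**
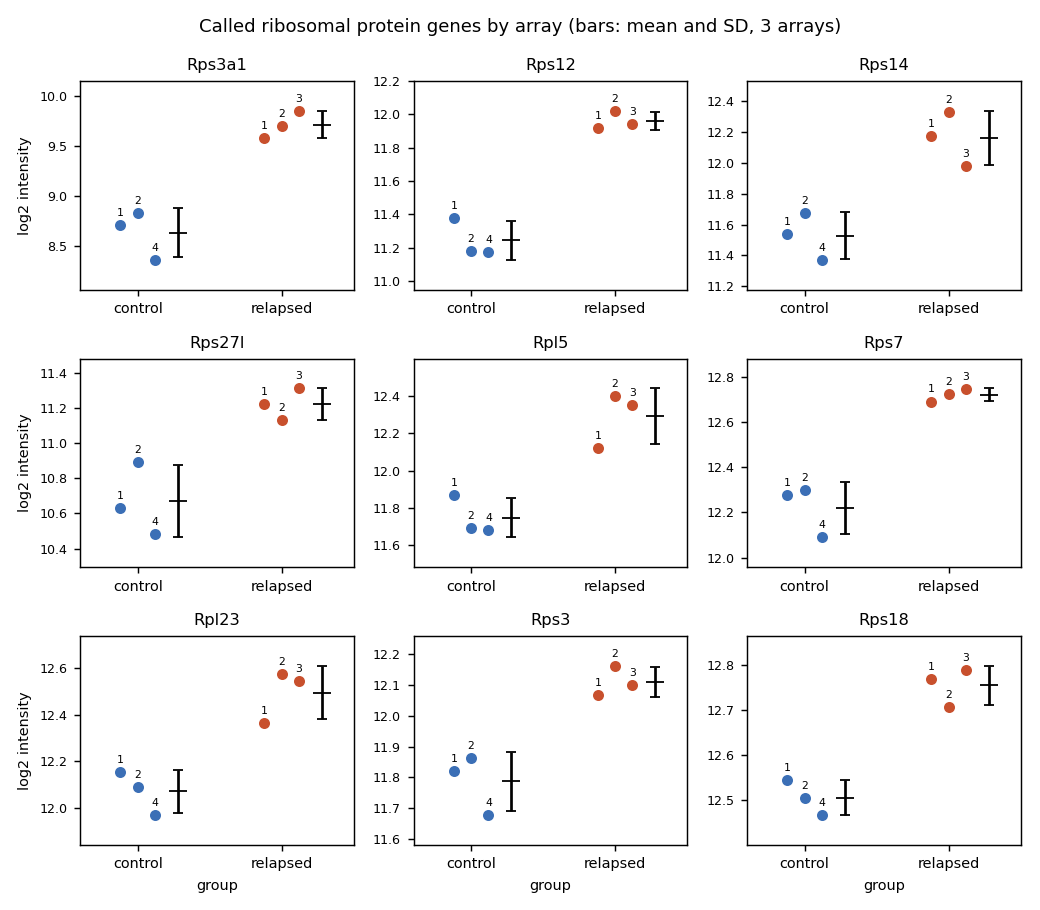
Log2 intensity of the 9 called genes in each array (blue, control 1, 2 and 4; orange, relapsed 1, 2 and 3; numbers name the tumour), with mean and SD over 3 arrays beside each group; vertical axes differ between panels and do not start at 0. In every panel all relapsed arrays lie above all control arrays, and control 4 is the lowest array in each of the 9.

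Several genes had differences as large as the called ones and did not pass. Rps21, a small-subunit protein, differed by 0.63 ± 0.18 (limma adjusted p = 0.0977), with controls from 9.27 to 9.85 and relapsed arrays from 9.92 to 10.31. Rpl26, at the rim of the peptide exit tunnel, differed by 0.62 ± 0.23 (adjusted p = 0.155 in limma), and Rpl24, at the bridge between the subunits, by 0.53 ± 0.13 (0.0715). In each of these 3 the groups did not overlap. Rps29, a small protein of the head, differed by 0.62 ± 0.32, and control 2 at 11.32 lay above relapsed 2 and relapsed 3 at 11.15 and 11.12. Rpl7, a large-subunit protein, differed by 0.47 ± 0.13 (limma adjusted p = 0.0854). By structural group, 10 of the 14 listed proteins of the small-subunit head were measured, all positive, with 3 called (Rps12 and the less stable Rps3 and Rps18) and a median of 0.30. Of the listed genes of Diamond-Blackfan anaemia, an inherited failure of red cell production, 10 of 19 were measured, all positive, with 2 called (Rps7 and Rpl5) and a median of 0.34. Among all 50 canonical genes, 49 were positive and 8 were called higher, with a median of 0.25. Of all genes tested, 44.9% were positive and 3.69% were called higher. Being all positive therefore does not set these groups apart from the other canonical genes.

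At the other end lay genes with nearly equal means. Rps6, the small-subunit protein phosphorylated by the S6 kinases, read 13.20, 13.15 and 13.12 in the controls and 13.15, 13.12 and 13.19 in the relapsed tumours. The difference was 0.0007 ± 0.05, with a 95% interval from -0.13 to 0.13. Rps2, at the messenger RNA entry, read 12.94, 12.95 and 12.88 against 12.94 in each relapsed tumour. Rpl8 differed by 0.0055 ± 0.07. The probe sets of Rps2 and Rps6 lie at the 99.8 and 99.9 percentile of mean signal, and that of Rps2 gave 1 and the same value in 4 of the 6 arrays. Equal values in 2 or more arrays occurred in 11.86% of the members and in 38.86% of all genes. The highest value of each array lay between 14.17 and 14.24. Whether signal near the top of the scale limits the differences of Rps2, Rps6 and Rpl8 was not tested. The signs of these 3 differences turned under some alternatives.

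Rpl12, of the stalk base where translation factors bind, was the exception among the canonical genes. It read 8.62, 8.59 and 8.60 in the controls and 8.44, 8.39 and 8.37 in the relapsed tumours. Every relapsed array lay below every control array, and the difference of -0.21 ± 0.05 did not pass (limma adjusted p = 0.0632). The 8 probe sets that Rpl12 shares with other symbols went the other way, from 0.03 to 0.14, none called, with every relapsed array above every control array in 7 of them. The brightest of these read 13.15, 13.12 and 13.02 against 13.21, 13.23 and 13.23. The direction for Rpl12 therefore depends on the probe set.

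The 9 paralogs, copies and the binding protein did not share the pattern. Of them 3 had a positive difference (Rps27l, Rpl39l and Rpl32l), 1 was called and the median was -0.08, against 49 of 50 positive and a median of 0.25 among the canonical genes. Rpl39l, a paralog known from testis, differed by 0.73 ± 0.43. Relapsed 2 at 6.38 made most of that, with relapsed 1 and 3 at 5.06 and 4.77 and the controls at 4.70, 4.75 and 4.56. All but relapsed 2 lay under 5.65, the median signal of the unlisted probe sets, which the annotation ties to no gene. Paralogs and parent genes differed in some pairs and lay close in others. Rpl10l and Rps4l differed by -0.09 and -0.02 where Rpl10 and Rps4x differed by 0.24 and 0.31, and Rpl7l1 differed by -0.11 where Rpl7 differed by 0.47. The second probe set of Rps4l was positive, at 0.11. Rpl36al, at 0.37 over its shared probe sets, lay close to Rpl36a at 0.40, and Rpl3l at -0.08 to Rpl3 at -0.05. In other pairs the paralog lay above the parent, with Rpl39l at 0.73 against Rpl39 at 0.08 and Rpl32l at 0.35 against Rpl32 at 0.13. Both of these parents are read by shared probe sets, and that of Rpl32 also names Rpl32l. None of the genes of these pairs was called, and the differences between paralog and parent were not tested. Rpl3l, a paralog of striated muscle, read 5.10, 5.46 and 5.10 in control 1, 2 and 4 and from 5.04 to 5.20 in the relapsed tumours. Its highest array, control 2, was also the array with the most skeletal muscle signal, where the mean over 8 muscle markers lay 1.74 above their mean over all arrays, against 0.02 or less in the other arrays. The part of muscle in the value of Rpl3l was not tested. Rps23rg1 and Rps19bp1 each differed by -0.14.

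**Figure D3:**
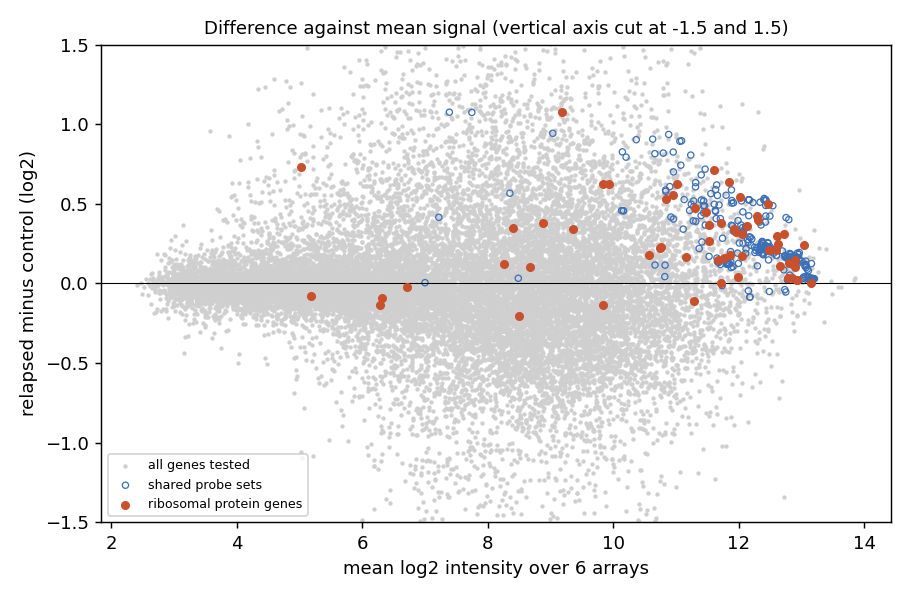
Log2 difference, relapsed minus control, against mean log2 intensity over 6 arrays for all genes tested (grey), the 59 ribosomal protein genes (orange) and the 237 probe sets shared with other symbols (open blue); the vertical axis is limited to -1.5 and 1.5. All 22 members with a mean of 12 or above lie above 0, while the other genes of that range spread to both sides.

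Most members are read by bright probe sets, 40 of the 59 in the top 5% of mean signal and 22 in the top 1%, so the differences were read beside other genes of like signal. At a mean of 12 or above, 22 of 22 members were positive with a median of 0.21, while 48.7% of 199 other genes were positive with a median of -0.01. Between 10 and 12, 21 of 22 members were positive with a median of 0.30, against -0.05 over 2305 other genes. Between 7 and 10, 8 of 10 members were positive with a median of 0.35, against -0.06. Under 7, 1 of 5 was positive. Those 5 are Rpl39l, Rps4l, Rpl10l, Rps23rg1 and Rpl3l, none of them canonical.

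The control tumours differed among themselves. Centred on each gene's average, the median log2 value of the 59 genes was -0.12 in control 1, 0.01 in control 2 and -0.27 in control 4. It was 0.13, 0.09 and 0.06 in relapsed 1, 2 and 3, and from -0.02 to 0.01 in each of the 6 arrays over all genes. Control 4 was the lowest of the 6 arrays for 44 of the 59 (74.6%), against 10.3% of all genes. Control 2 was the highest control for 41. Without control 4, 42 of the 59 stayed positive and the median fell to 0.17. Without control 2, 53 were positive and the median was 0.31. The SD over controls exceeded that over relapsed arrays in 44 of the 59 (74.6%), against 45.5% of all genes. Rpl13, a large-subunit protein, had the widest control range, with 10.14, 11.36 and 9.96 in the controls around 10.84, 10.62 and 10.53 in the relapsed tumours, so that its difference of 0.18 ± 0.38 could not be told from 0. Rpl29 and Rps29 had control ranges of 1.05 and 1.07, again with control 2 highest. Control 2 was the array with the high muscle score, and its part in these values was not tested.

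**Figure D4:**
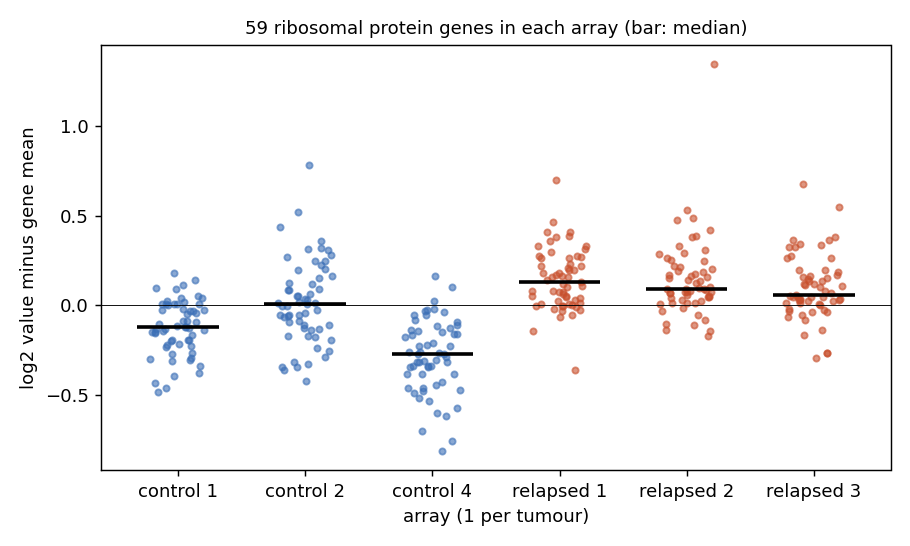
Each point is 1 of the 59 genes in 1 array, as its log2 value centred on that gene's average; the bar is the median of the array (blue, control; orange, relapsed). The medians are -0.12, 0.01 and -0.27 in control 1, 2 and 4 and 0.13, 0.09 and 0.06 in relapsed 1, 2 and 3, so control 2 lies nearer to the relapsed tumours than control 4 does.

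The shared probe sets gave the same direction with other features. Of the 237, 230 (97.0%) had a positive difference, against 50.3% of all probe sets, and the median was 0.23. In limma over all 35556 probe sets, 17 were called higher and 0 lower, where 2.45% of all probe sets were called higher and 2.42% lower. Relapsed arrays lay above controls for 105, against 13.6% of all probe sets. Many are near copies of each other (35 for Rpl29 and 32 for Rpl21 alone), so these counts are not counts of independent measurements.

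Some genes absent from the 59 stood out there. Rpl22l1, the paralog of Rpl22, is read by 2 probe sets shared with a predicted gene. The brighter read 7.37, 7.10 and 7.16 in the controls and 8.11, 8.54 and 8.20 in the relapsed tumours, a rise of 1.07 ± 0.14 (limma adjusted p = 0.0264). Both of its probe sets were called, whereas Rpl22 differed by 0.38 ± 0.11 (limma adjusted p = 0.1005) from its own probe set. Rps24, a Diamond-Blackfan gene, had differences of 0.89 to 0.94 over 3 shared probe sets, of which 1 was called. Rps27 and its near copy Rps27rt share 2 probe sets, at 0.79 and 0.83, neither called. Rpl11, the partner of Rpl5 at the 5S RNA, had 6 probe sets from 0.42 to 0.53, none called. Rpl3, which lies at the peptidyl transferase centre, was the exception, with all 7 shared probe sets between -0.09 and -0.01.

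Where a gene had both kinds, the values did not always match. Rps12 rose in all 4 shared probe sets (0.58 to 0.70), and Rps3a1 rose in both of its shared probe sets (0.72 and 0.74). Rpl30, at 0.34 in its own probe set and not called, had 10 shared probe sets from 0.49 to 0.59, of which 4 were called. Rps15a differed by 0.12 in its own probe set and by 0.82 and 0.83 in the 2 shared with its pseudogenes. Rpl13 differed by 0.18 in its own probe set and by 0.94 ± 0.14 in the probe set it shares with Snord68, a small nucleolar RNA of its intron (limma adjusted p = 0.0333). There the controls read 8.85, 8.30 and 8.55 and the relapsed tumours 9.51, 9.50 and 9.51, and control 2, the highest array in the gene's own probe set, was the lowest.

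**Figure D5:**
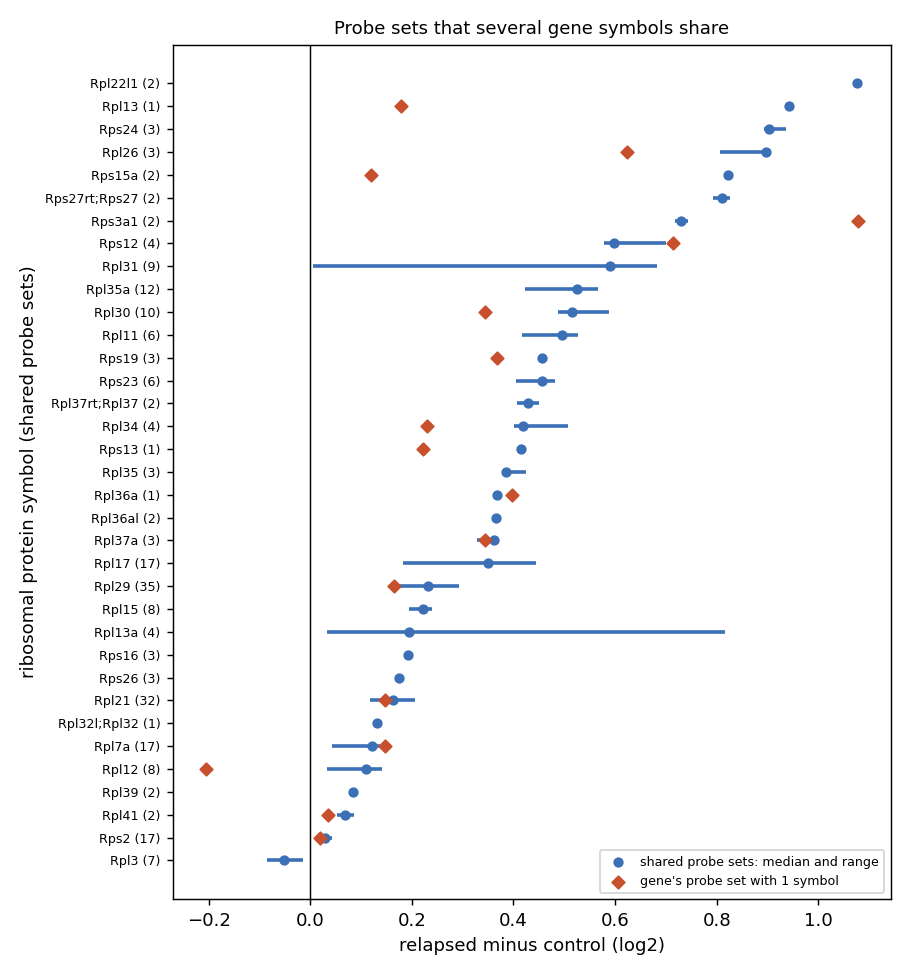
Log2 difference, relapsed minus control, of the 237 probe sets that several symbols share, as median (blue point) and range (line) per ribosomal protein symbol with the number of probe sets in brackets; an orange diamond gives the gene's probe set with 1 symbol where there is one. Medians run from -0.05 for Rpl3 to 1.08 for Rpl22l1, and the diamonds of Rpl13, Rps15a and Rpl12 lie well left of their shared probe sets.

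Genes that build the ribosome were counted in the same fit. Of the 13 measured genes of RNA polymerase I and its factors (16 listed), 3 were positive (23.1%, against 44.9% of all genes), with a median of -0.23. Of them 0 were called higher and 3 lower, where 3.69% and 5.47% of all genes were. Polr1b, the second largest subunit of the enzyme, read 10.37, 10.42 and 10.34 in the controls and 9.57, 9.41 and 9.50 in the relapsed tumours. The groups lay far apart, and it fell by 0.88 ± 0.06 (limma adjusted p = 0.00660), a call that held with any 1 array left out. Polr1a, the largest subunit, fell by 0.71 ± 0.08 (adjusted p = 0.0143 in limma), and Taf1c, of its promoter factor, by 0.36 ± 0.06 (0.0313). Without control 4, Polr1a was not called, and Taf1c was not called with any array left out.

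Of the 59 genes of rRNA processing and ribosome assembly, 22 were positive (37.3%, against 44.9% of all genes), 0 were called higher and 5 lower, with a median of -0.07. The share called lower is near the 5.47% of all genes. The calls were Grwd1, a histone chaperone that takes part in ribosome assembly, which fell by 0.88, Nop2, an rRNA methyltransferase, which fell by 0.71, Ddx56, a nucleolar helicase, which fell by 0.63, Imp4, of the small-subunit processome, which fell by 0.47, and Utp4, of the same complex, which fell by 0.43. With 1 array left out, between 0 and 1 of this list were called. At an unadjusted p under 0.05, 5 were higher and 12 lower, where 2241 and 3066 of all 19938 genes were. Proteins of the mitochondrial ribosome, a separate particle, were close to the background, with 37 of 77 positive (48.1%, against 44.9% of all genes), 5 called higher and 4 lower (3.69% and 5.47% of all genes) and a median of -0.01. Mrps18c rose by 0.88, Mrpl33 by 0.78 and Mrps33 by 0.75, and Mrps7 fell by 0.85. With 1 array left out, between 0 and 5 of them were called.

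Other transcripts known to carry a 5′ terminal oligopyrimidine tract were split, with 7 of 13 measured positive (53.8%, against 44.9% of all genes) and a median of 0.11. Of them 3 were called higher and 0 lower, where 3.69% and 5.47% of all genes were. Gas5, a non-coding host of small nucleolar RNAs, read 10.05, 9.95 and 9.80 in the controls and 10.72, 10.996 and 10.87 in the relapsed tumours, a rise of 0.93 ± 0.10 (limma adjusted p = 0.0139). Eif3e, a subunit of initiation factor 3, rose by 0.81 and Naca, of the nascent chain complex, by 0.39. None of the 3 was called in every fit with 1 array left out, and between 0 and 2 of the list were. Among 29 initiation factors, 14 were positive (48.3%), close to the share of all genes. Eif3e was the one call, where 3.69% of all genes were called higher, and it was lost with any 1 array left out. Among 10 elongation and termination factors 3 were positive (30%) and 1 was called lower (5.47% of all genes). Gtpbp1, a GTPase related to elongation factors, fell by 0.98, a call that held with relapsed 1 left out and with no other array left out. Of 16 genes that control ribosomal protein synthesis, 4 were positive (25%, against 44.9% of all genes) and 1 was called lower (5.47% of all genes). That was Tsc2, which restrains mTOR. It fell by 0.55 ± 0.07 (limma adjusted p = 0.0158), a call lost without control 1, control 4, relapsed 2 or relapsed 3. Genes of mTOR signalling that were not called went both ways. Rptor differed by -0.57, Rps6kb2 by -0.42 and Mtor itself by -0.37, while Rheb differed by 0.37. The activity of mTOR was not tested. Of the 7 ribosomal proteins with other symbols, 5 were measured and 0 were called in limma, with 1 at an unadjusted p under 0.05. Only 2 of the 5 were positive (40%, against 44.9% of all genes), and the median was -0.003. The 2 were Rpsa, which differed by 0.29 ± 0.09, and Rplp1, of the stalk, which differed by 0.16 ± 0.08. The lowest of the 5 differed by -0.06.

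Markers of some host cells moved with the groups. Over all genes, 3.69% were called higher and 5.47% lower, beside which the counts of called markers stand. All 8 macrophage markers were higher in relapsed tumours, 7 of them called, and their summed log2 values ran from 69.72 to 72.0 in controls and from 81.97 to 85.65 in relapsed tumours. All 8 fibroblast markers were higher as well, 7 of them called, with sums from 71.82 to 75.72 and from 85.2 to 92.03. Of 6 glioma and glial progenitor markers, 1 was positive and 2 were called lower, Olig2 at -3.54 and Fabp7 at -2.21, with sums from 61.33 to 64.8 and from 54.26 to 57.25. No marker of these 3 lists had a mean signal under 5.65, the median of the unlisted probe sets. In single arrays Fap, a fibroblast marker, read 5.45 in control 2. Other host cells did not separate the groups in this way. Of 5 endothelial markers 1 was positive and 1 was called lower, Robo4 at -0.58. Adipocyte markers were high in relapsed 1 alone, where their mean lay 2.74 above their average over arrays, against -0.68 and -0.32 in relapsed 2 and 3. Keratinocyte markers were high in relapsed 3 alone, at 1.67 against -0.31 and -0.51 in relapsed 1 and 2. Of 6 proliferation markers, 0 were called in limma and 2 were lower at an unadjusted p under 0.05, where 3066 of all 19938 genes were. The part of host cells in the differences of the ribosomal protein genes was not tested.

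Short motifs in the promoters were also counted, on both strands, over 250 bases before to 50 bases after each start. CCGGAAG, bound by ETS factors such as GABP, was in 17 of 48 members (35.4%) and in 9.93% of all genes of the table. GGGCGG, a core of Sp1 sites, was in 27 (56.3%) against 38.2%. CACGTG, the E-box that Myc can bind, was in 5 (10.4%) against 8.09%, and TATAAA in 5 (10.4%) against 15.7%. Neighbouring motifs can share end bases. The median log2 difference was 0.25 with CCGGAAG and 0.18 without it, and the reverse for GGGCGG, at 0.18 with it and 0.25 without. It was 0.23 with CACGTG and 0.21 without, and 0.35 with TATAAA and 0.21 without. These matches describe the windows and show no bound site.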

How the data were processed

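Total RNA from 6 whole tumours was read on Affymetrix arrays, 1 per tumour, with 3 tumours per group. The deposited values are log2 intensities per probe set. They were taken as already normalised between arrays, because the array medians ran from 6.58 to 6.68. The scale was read from the values. The submitters' processing notes name affy with no version, while the methods of background correction, normalisation and summary have no mention (not given in the sources used here). Normalisation that sets arrays alike hides a change shared by most transcripts.

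Gene names came from the platform annotation, which gives 1 symbol for 21789 of the 35556 probe sets, several for 1621 and no entry for 12146. limma 3.58.1 in R 4.3.3 (lmFit and eBayes, group as the one term, 4 residual degrees of freedom, two-sided) was fitted over 19938 genes, or over all probe sets for shared ones, with Benjamini-Hochberg adjustment and a threshold of 0.05. No filter on dim probe sets was used. Precision is limited by having 3 arrays per group.

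Named genes are the called members, the 10 most positive and 10 most negative, those with extreme spread, paralog pairs, and up to 4 called genes of each pathway list, or the 2 with the smallest p where none was called. Utp4 as the fifth call of its list, Rpl13, Rpl29, shared probe sets and markers were added after their values were seen. The members and lists were chosen with earlier results of these data known. Alternatives covered the choice of probe set, all probe sets tested, a filter on dim genes, quantile normalisation, median centring, a trended robust prior, the replicate block and each array left out. Sequences come from RefSeq (GRCm38.p6).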

Additional observations from a re-analysis of the deposited data

How the results depend on the processing

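Of the 59 genes, 0 were called lower under any alternative run, and between 42 and 53 had a positive difference, with a median from 0.17 to 0.31. The count of members called higher, 9 as reported, was 4 with every probe set tested, 0 with the replicate block and from 0 to 5 with 1 array left out, and 6 to 8 under the others. The 17 calls among shared probe sets became 30 after quantile normalisation, 0 with the replicate block and 0 to 2 with 1 array left out. The 1826 genes called became 0 with the block and 264 to 975 with 1 array left out. Control and relapsed tumours share only the numbers 1 and 2, so the difference in the block fit rests on those tumours alone. The deviations of same-numbered arrays correlated at -0.337 and -0.248. With only 2 such pairs, these values cannot show whether the tumours were paired. With the block, 5 members were higher and 0 lower at an unadjusted p under 0.05. Signs turned only for members that were not called. Quantile normalisation gave -0.0687 for Rpl8. The block gave -0.0133 for Rpl8, -0.0033 for Rps2 and -0.0376 for Rps6. The mean of probe sets gave 0.0415 for Rps4l. With 1 array left out, differences ran from -0.2935 to 0.0691 for Rpl10l, -0.1373 to 0.0445 for Rpl3l, -0.047 to 0.0391 for Rpl8, -0.274 to 0.0107 for Rps19bp1, -0.0033 to 0.0318 for Rps2, -0.0918 to 0.0126 for Rps4l and -0.0193 to 0.0215 for Rps6. Another 8 members turned sign with an array left out, among them Rpl28 (-0.1318 to 0.2568), Rpl13 (-0.0859 to 0.616) and Rpl29 (-0.0592 to 0.4654), and the rest were Rpl10a, Rpl14, Rpl27, Rpl41 and Rpl19. The cause of these turns was not tested. Of the 52 positive members, 41 stayed positive with any array left out. For 2 members the mean signal lay under that of the median unlisted probe set, which limits what their differences show.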
